A study of Nothobranchius furzeri with 20 samples.

Results

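The genes described here were 149 liver transcripts of the turquoise killifish that had lower levels in every library from 27-week fish than in every library from 9-week fish. They were chosen from 26739 gene identifiers by a fixed rule on CPM, counts scaled to a common library size, with TMM, a normalisation that balances library composition. The rule took genes with a mean of at least 1 and under 1000 CPM, which 14161 identifiers met. It then asked that the highest of the 10 libraries at 27 weeks lie below the lowest of the 10 libraries at 9 weeks. Exercised and unexercised 9-week means had to lie within 1.3-fold of each other, and the means of 2 runs of title numbers within the 27-week group had to lie within 2-fold, with 0.5 CPM added to both sides of each ratio. Up to 150 genes could be taken by the size of the gap between the ages, and since 149 met all conditions, all of them were kept. The members were thus selected on their values in all 20 libraries, and their separation between the ages is the rule itself and not a finding.

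All fish were males of the strain MZM-04/10p of Nothobranchius furzeri, and liver was the tissue in every library. The older group held 10 libraries from 27-week animals exercised in a swim tunnel, 5 libraries came from fish exercised at 9 weeks, and 5 came from unexercised 9-week fish. There was no unexercised group at 27 weeks, so age could be read against exercised young fish. Against unexercised young fish, age and exercise differed together. The effect of exercise in old fish could not be read. The titles of the 27-week samples form 2 blocks of running numbers under the same labels, replicates 1 to 5 (here the lower-numbered run) and 6 to 10 (the higher-numbered run), and the labels do not say what separates them. Each 9-week group has a block of title numbers of its own, so anything that follows the titles cannot be told apart from age or exercise. Whether each library is a separate fish is not given, so the spread between libraries may be partly technical. Depth ran from 24.8 to 44.6 M counts (M, mega) at 27 weeks, and at 9 weeks from 34.0 to 38.8 M with exercise and from 22.4 to 38.4 M without it.

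The turquoise killifish is an annual fish of seasonal ponds that matures and ages fast, and it is used as a vertebrate model of ageing. The liver makes most plasma proteins, handles lipids, sugar and bile acids, and clears foreign compounds, and its transcript pool is dominated by a small number of very abundant secreted proteins. In ageing vertebrates, liver transcripts have often been followed for genes of cell division, extracellular matrix and mitochondrial respiration. The identifiers come without gene names, and 0 of the 26739 identifiers matched the RefSeq gene table used here, so no member could be assigned a name, a pathway or a sequence, and the labelled tissue could not be checked against liver markers. Members are therefore given by identifier and described by level, size of difference, gene length and behaviour across libraries. In whole tissue, fewer cells of a type and less RNA per cell cannot be told apart.

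Of the 14161 genes in the abundance range, 189 had all 27-week libraries below all 9-week libraries, 1.33% of the range. The reverse, all 27-week libraries above all 9-week ones, held for 176 genes or 1.24%. The limit on exercise removed 12 of the 189, and the limit on the title runs removed 32, with 40 removed by either. In each of the 32, the lower-numbered run was the one with the lower mean. The last member inside the rule had a gap ratio (lowest 9-week over highest 27-week CPM, 0.5 added) of 1.0007, and the nearest gene outside had 0.99997. Among genes with separated ages, the lowest ratio of the lower to the higher run inside the limit was 0.512 and the nearest outside was 0.498. The highest ratio of exercised to unexercised 9-week livers inside was 1.28 and the nearest outside was 1.39.

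At 27 weeks the members stood at a median of 57.6% of their 9-week mean (27.4% to 83.8% over the 149 members, 0.5 CPM added), which is a log2 difference of -0.80. All 14161 genes of the range had a median of 102% of their 9-week mean. For 36 members the 27-week mean was at or under 50% of the 9-week mean, for 106 it lay between 50% and 75%, and for 7 it was above 75%. Most separated genes thus differed by less than 2-fold. The gap between the nearest libraries of the ages was smaller still, with a median ratio of 1.07. It was 1.2 or more in 22 members, 1.1 or more in 61 and under 1.1 in 88.

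**Figure D1:**
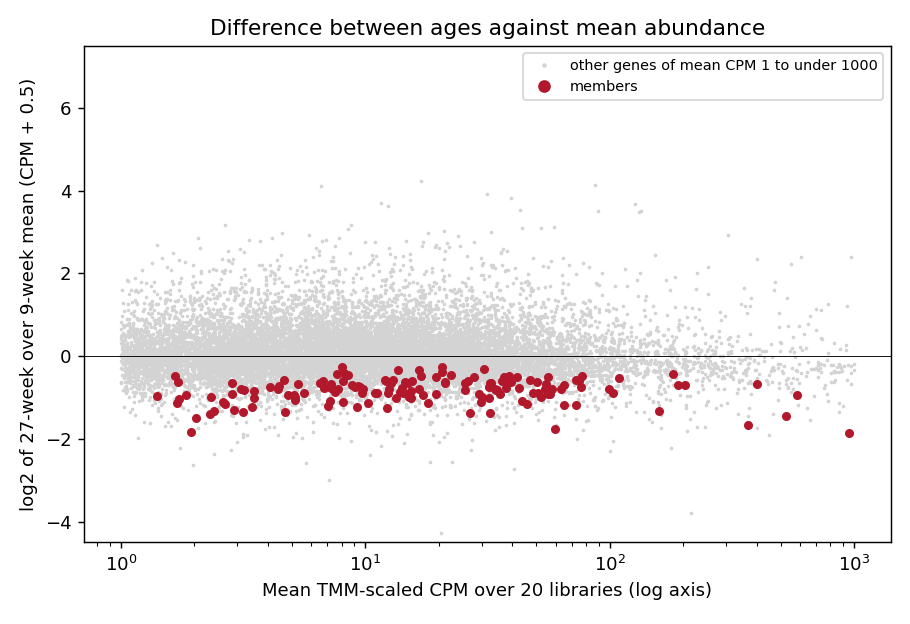
Mean TMM-scaled CPM over 20 libraries (log axis) against the log2 ratio of the 27-week to the 9-week mean, for the 149 members (red) and the other genes with a mean of 1 to under 1000 CPM (grey). The members lie between -1.87 and -0.26 and are spread over the whole abundance range. Many grey points at the same log2 ratio are no members, because libraries of the ages overlap or a fold limit was exceeded.

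In the fit of all 20 libraries, 148 of the 149 members were called lower at 27 weeks than in exercised 9-week livers, where 13.1% of all 17118 genes tested were called lower and 17.3% higher (edgeR quasi-likelihood F-test, Benjamini-Hochberg adjusted over all genes, threshold 0.05). Against unexercised 9-week livers, a contrast of age and exercise together, 149 of 149 were called lower, where 9.00% of all genes were. Both contrasts were used to choose the members, so the counts only describe them. The fitted log2 fold change had a median of -0.85 over the members (-2.55 to -0.20) against exercised and -0.82 (-2.51 to -0.31) against unexercised 9-week livers, beside medians of 0.02 and 0.02 over all genes. A single member missed the call against exercised livers. Both comparisons share the 27-week libraries.

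Within the abundance limits of the rule, the members were somewhat more abundant than the range genes. Between 10 and 100 CPM lay 82 of them (55.0%, against 44.8% of the range genes), between 1 and 10 CPM 56 (37.6%, against 49.8%) and from 100 CPM up 11 (7.38%, against 5.33%). The median mean level was 15.3 CPM, beside 10.1 CPM over the range genes. The rule used the same CPM values, and counting error weighs more at low counts, so this shift only describes the chosen genes. With 0.5 CPM added, the median percentages of the 9-week level were 54.1% from 100 CPM up, 58.2% between 10 and 100 CPM and 55.4% between 1 and 10 CPM. The addition moves ratios toward 100% most at low levels. These medians therefore do not show whether the size of the difference was alike over the classes. Scaled per kilobase of the gene length implied by the deposited values (RPKM), the members had a median of 4.07 RPKM at 27 weeks and 6.52 RPKM at 9 weeks, and they reached 398 RPKM at 27 weeks and 1084 RPKM at 9 weeks.

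**Figure D2:**
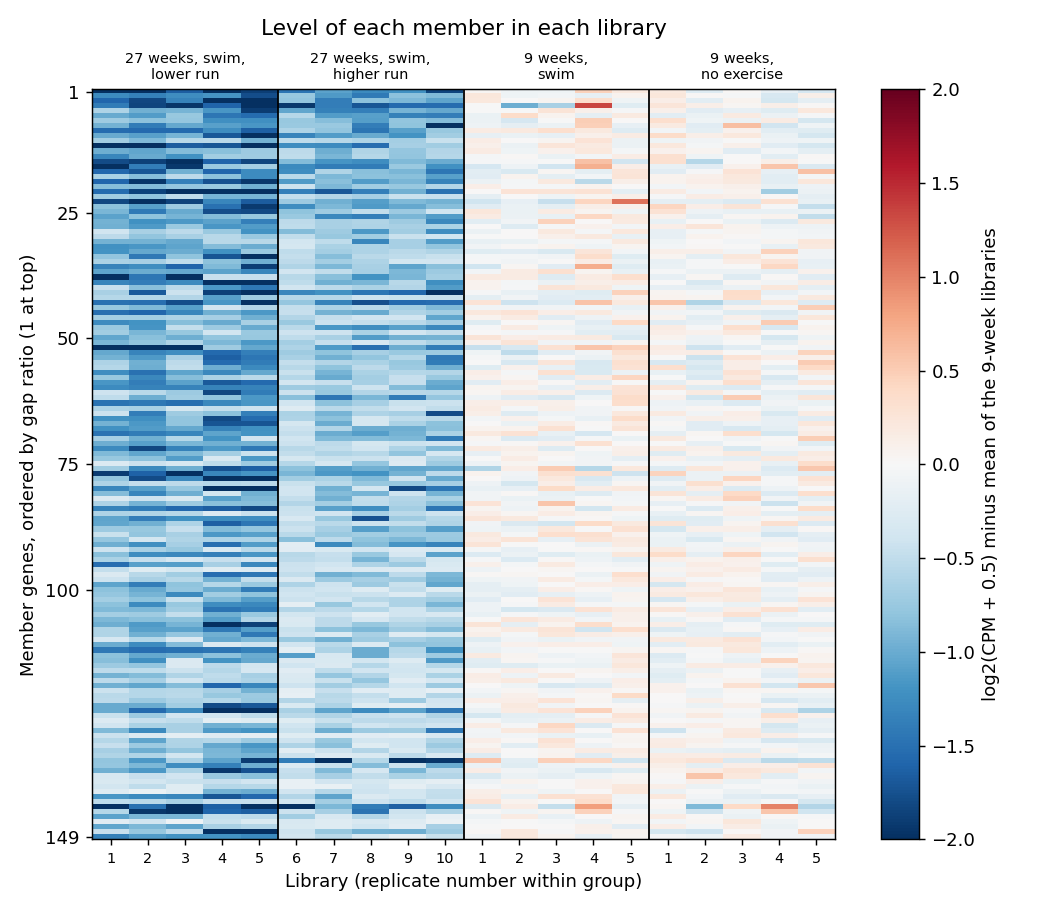
Each row is 1 of the 149 members, ordered by gap ratio with the widest gap at the top, and each column 1 library, with colour for log2(CPM + 0.5) minus the mean of the 9-week libraries. Both 27-week runs (left) are blue throughout, by the rule, and the lower-numbered run is deeper blue than the higher-numbered run for most members.

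The widest gap belonged to Nfu_g_1_004239. At 27 weeks it had 122, 103, 176, 124.9 and 149.9 CPM (lower-numbered run) and 202, 264, 229, 239 and 155 CPM (higher-numbered run). Exercised livers at 9 weeks had 572, 524, 522, 762 and 636 CPM, and unexercised ones 636, 466, 566, 493 and 441 CPM. The highest library at 27 weeks and the lowest at 9 weeks were 1.67-fold apart, and the 27-week mean of 176 ± 55.0 CPM (SD, n = 10) was 31.5% of the 9-week mean of 562 ± 96.0 CPM (SD, n = 10). Per kilobase this was 63.5 RPKM at 27 weeks against 202 RPKM at 9 weeks.

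Nfu_g_1_020112 had the next widest gap, at a far lower level. Its values were 1.33, 1.2, 1.34, 1.42 and 0.778 CPM (lower-numbered run) and 2.07, 1.48, 1.14, 1.98 and 1.88 CPM (higher-numbered run) at 27 weeks. At 9 weeks they were 4.63, 3.60, 3.70, 3.40 and 4.07 CPM with exercise and 4.59, 3.92, 3.79, 2.98 and 4.21 CPM without it. The 9-week groups were level, at 3.88 ± 0.482 CPM with exercise and 3.90 ± 0.597 CPM without (SD, n = 5 each), and the 27-week mean was 1.46 ± 0.405 CPM (SD, n = 10). The gap ratio was 1.36, but the nearest libraries rested on 54 counts at 27 weeks and 101 at 9 weeks, and their exact 95% Poisson intervals overlapped (up to 2.70 CPM and down to 2.43 CPM).

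The most abundant member had the lowest ratio of the 27-week to the 9-week mean with 0.5 CPM added, and a narrow gap. Without that addition, members of low level had lower ratios. It had 265, 489, 181, 444 and 214 CPM (lower-numbered run) and 212, 737, 522, 442 and 581 CPM (higher-numbered run) at 27 weeks. Exercised 9-week livers had 1127, 1522, 988, 2428 and 1216 CPM, and unexercised ones 1407, 744, 1811, 2744 and 919 CPM. The 27-week mean was 409 ± 185 CPM (SD, n = 10), 27.4% of the 9-week mean of 1491 ± 659 CPM (SD, n = 10), while the nearest libraries, at 737 CPM and 744 CPM, differed by 1.01-fold. Levels within each age spread widely in this gene, so its separation rests on a pair of nearly equal libraries.

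**Figure D3:**
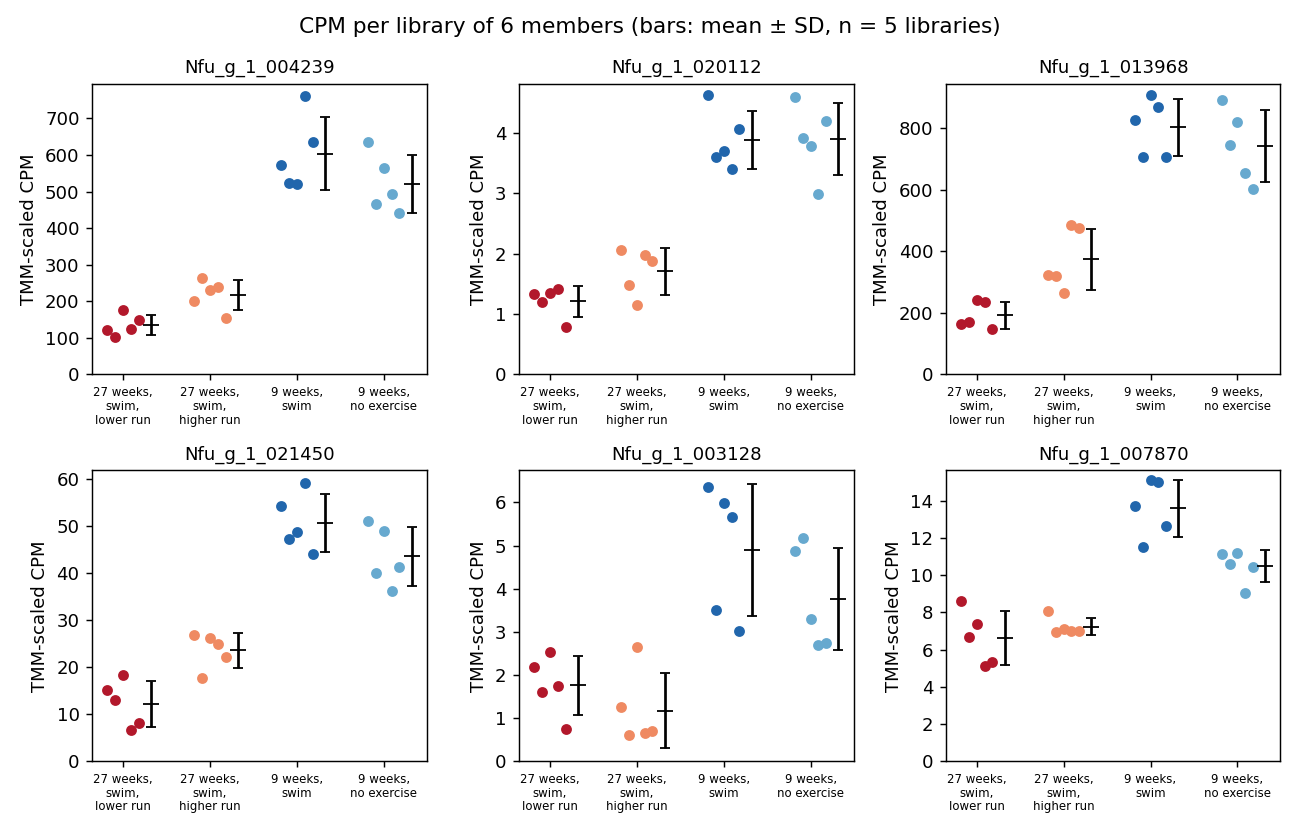
TMM-scaled CPM per library of 6 members, in the lower- and higher-numbered runs at 27 weeks and in exercised and unexercised livers at 9 weeks, with mean ± SD (n = 5 libraries) beside the points. The upper row and Nfu_g_1_021450 show wide gaps between the ages, while in Nfu_g_1_003128 the highest 27-week library (2.64 CPM) almost meets the lowest 9-week one (2.69 CPM).

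The members were further down in the lower-numbered run than in the higher-numbered run. Relative to exercised 9-week livers, the lower-numbered run had a median of 51.0% and the higher-numbered run 63.9% over the members. Relative to unexercised 9-week livers the medians were 52.6% and 64.2%, with the 9-week libraries shared by both runs. The lower-numbered run had the lower mean in 129 of 149 members (86.6%), against 6386 of the 14161 range genes (45.1%). The ratio of the lower- to the higher-numbered run had a median of 0.843 over the members and 1.07 over the range genes. This ratio is not independent of the rule, which required low values in the same libraries and limited the ratio to 2-fold, a limit that removed genes with the lower-numbered run lower and 0 with it higher. The counts therefore describe the chosen genes and are no test of a direction. For 74 members the run means lay within 1.2-fold, and for 40 the lower-numbered run stood at or under 0.7 of the higher-numbered run.

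Between the runs, 53 of the 149 members were called lower in the lower-numbered run, a share of 35.6%, where 20.1% of the 16157 genes tested were (edgeR, fit of the 27-week libraries). Called higher were 0 members, where 25.9% of all genes were. At an unadjusted p under 0.05 there were 58 members, against 8730 of all 16157 genes in either direction. The DESeq2 Wald test called 62 members, all lower, and 8152 of all genes in either direction, and limma-voom called 54 members, all lower, and 6954 of all genes. In either direction together, the members were thus called between the runs no more often than all genes. Every lower-numbered library lay below every higher-numbered one in 31 members (20.8%), beside 15.2% of the range genes, and the opposite held for 0 members, beside 18.2% of the range genes. A wide spread between the runs leaves less room under the 9-week libraries and the 2-fold limit removes the largest differences, so these counts are a description. The direction depends on the scaling. Scaled by library totals, the members had a median log2 difference between the runs of 0.20, where TMM gave -0.28, and 4 members were called lower and 27 higher. With that scaling 8827 of all 16157 genes were called in either direction. Over all genes tested the median was 0.60 with library totals and 0.11 with TMM, so that relative to the median of all genes the members stood at -0.40 with library totals and at -0.38 with TMM.

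The lowest ratio of the lower- to the higher-numbered run with 0.5 CPM added, 0.512, was that of Nfu_g_1_013968. Fitted log2 differences reached -1.19 in members of lower level. It had 164, 172, 241, 234 and 147 CPM in the lower-numbered and 323, 321, 265, 486 and 476 CPM in the higher-numbered run, without overlap. Exercised 9-week livers had 826, 706, 908, 868 and 708 CPM and unexercised ones 892, 745, 819.7, 656 and 603 CPM, above both runs. The fitted log2 difference between the runs was -0.94, which edgeR called, and with library totals it was -0.44 and was not called. Nfu_g_1_021450 followed, with 15.1, 12.9, 18.2, 6.62 and 8.0 CPM in the lower-numbered and 26.8, 17.6, 26.2, 24.9 and 22.2 CPM in the higher-numbered run. There, replicate 7 of the higher-numbered run fell below replicate 3 of the lower-numbered run, and the 9-week livers had 54.3, 47.1, 48.6, 59.2 and 43.9 CPM with exercise and 51.1, 40.1, 48.9, 36.3 and 41.3 CPM without.

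In the remaining members the lower-numbered run was the higher one, and the widest ratio of this kind, 1.35, was that of Nfu_g_1_003128. It had 2.18, 1.60, 2.53, 1.74 and 0.738 CPM in the lower-numbered run, and 1.26, 0.612, 2.64, 0.646 and 0.704 CPM in the higher-numbered run, whose replicate 8 exceeded all other 27-week libraries. The runs overlapped and edgeR did not call the difference (fitted log2 difference 0.59), although without replicate 8 it was called, at 1.15. Nfu_g_1_022327 had 24.2, 11.7, 28.2, 10.1 and 7.74 CPM in the lower-numbered and 15.2, 16.2, 13.8, 12.6 and 7.98 CPM in the higher-numbered run, again with overlap and no call. In this gene replicates 1 and 3 of the lower-numbered run stood above all other 27-week libraries, and replicates 4 and 5 at or below 10.1 CPM.

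The members were close to level between the 9-week groups, as the 1.3-fold limit of the rule required. The ratio of exercised to unexercised means had a median of 1.02 (0.826 to 1.28), and exercised means were the higher in 80 of 149 members. With library totals the median log2 fold change with exercise was -0.20 over the members and -0.25 over all genes, against 0.04 and -0.00 with TMM. Called between these groups were 0 members with edgeR, where 0.0117% of all genes were called higher and 0.00584% lower. The DESeq2 Wald test and limma-voom also called 0 members, where they called 402 and 2 of all 17118 genes. At an unadjusted p under 0.05 there were 4 members, against 2045 of all genes. In 2 members every exercised library lay above every unexercised one (3.28% of the range genes) and in 1 every exercised library lay below (5.80% of the range genes). The rule limited this contrast, so the counts only describe the members.

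The highest ratio of exercised to unexercised means with 0.5 CPM added, 1.28, was that of Nfu_g_1_007870. Exercised livers had 13.7, 11.5, 15.1, 15.0 and 12.7 CPM and unexercised ones 11.1, 10.6, 11.2, 9.04 and 10.5 CPM, without overlap. At 27 weeks it had 8.60, 6.66, 7.37, 5.09 and 5.31 CPM in the lower-numbered and 8.04, 6.93, 7.12, 7.02 and 7.0 CPM in the higher-numbered run. The exercised mean was 13.6 ± 1.53 CPM and the unexercised one 10.5 ± 0.867 CPM (SD, n = 5 each), not called with all groups in the fit and called with the 9-week groups alone in it (log2 fold change 0.39). Nfu_g_1_003128, described above, followed at 1.27, although its fitted log2 fold change of 0.39 was slightly above the 0.38 of Nfu_g_1_007870. It had 4.91 ± 1.53 CPM with exercise and 3.76 ± 1.19 CPM without (SD, n = 5 each), ranges that overlapped.

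Downward, Nfu_g_1_015898 had 69.6, 79.4, 76.5, 81.4 and 88.9 CPM in exercised livers and 87.7, 127.6, 101, 74.2 and 89.6 CPM in unexercised livers. The groups overlapped through exercised replicate 5 and unexercised replicates 1 and 4. Its 27-week libraries ran from 48.0 to 68.8 CPM with a median of 59.2 CPM, so that exercised replicate 1 stood only just above the highest of them. Nfu_g_1_007847 had 4.15, 3.25, 3.37, 3.97 and 3.63 CPM with exercise and 4.72, 4.07, 3.82, 3.99 and 5.88 CPM without, and from 1.22 to 2.97 CPM at 27 weeks (median 1.97 CPM). Its exercised mean was 3.67 ± 0.382 CPM and its unexercised mean 4.49 ± 0.845 CPM (SD, n = 5 each), a difference that edgeR did not call.

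Libraries did not contribute evenly to the edge between the ages. Replicate 6 at 27 weeks was the highest 27-week library in 54 of 149 members, and the higher-numbered run supplied the highest library in 116 and the lower-numbered run in 33. Within the higher-numbered run, replicate 6 was the highest library in 69 members (46.3%), against 3283 of the range genes (23.2%). A further 216 genes met both fold limits and had exactly 1 library at 27 weeks at or above the lowest 9-week one, and in 102 of them it was replicate 6. Without replicate 6, and so with fewer libraries to separate, 258 genes met the rule, and 95 of the 149 members were among the 150 then taken. At 9 weeks unexercised replicate 4 was the lowest library most often, in 32 members. Unexercised libraries were the lowest in 94 members and exercised ones in 55. Shares over the range genes are not given for the highest 27-week or the lowest 9-week library, so those counts only describe the members. Replicate 6 had 29.3 M counts, within the range of its run, and its median member stood at -0.49 (log2 from the 9-week mean), the nearest to the 9-week level of all 27-week libraries.

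**Figure D4:**
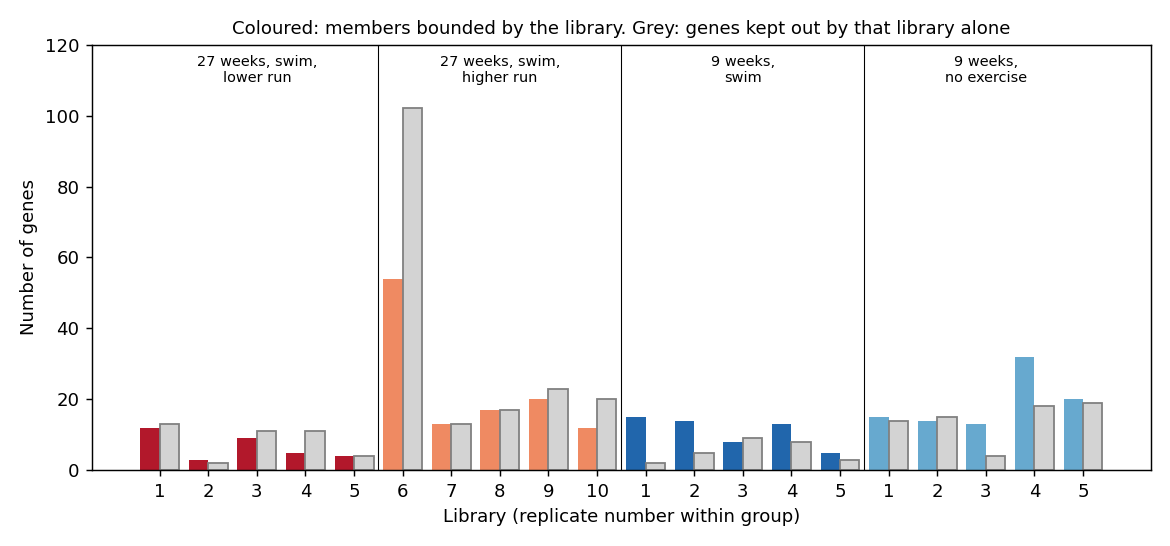
Coloured bars give the number of members for which a library was the highest at 27 weeks or the lowest at 9 weeks, and grey bars the number of genes within the fold limits that this library alone kept from separation (a gene that either of 2 libraries would free is counted under the 27-week one). Replicate 6 at 27 weeks stands out with 54 members and 102 genes kept out, against at most 32 and 23 for any other library.

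At the other end, replicates 4 and 5 of the lower-numbered run held the lowest value of the 27-week group in 80 of 149 members. The lower-numbered run as a whole held the lowest value in 83.9% of the members. Shares over the range genes are not given here, so both figures only describe the members. In replicates 4 and 5 the 100 most abundant transcripts took 40.0% and 39.1% of the counts, against 48.3% to 53.9% in the other 27-week libraries. Their part in the members' levels was not tested. Both lay below replicates 1 to 3 of their run in 56 members and both above in 23, beside 31.8% and 24.7% of the range genes. Without replicates 4 and 5, in fits chosen after seeing the data, 147 members were called against exercised 9-week livers, all lower, where 4443 of 16930 genes were called in either direction. Against unexercised 9-week livers 148 were called, all lower, where 2990 genes were. Between the runs 45 members were called, 44 lower and 1 higher, where 6655 of 16470 genes were called. Under the rule applied without them, and so with fewer libraries to separate, 196 genes qualified.

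The median member stood from -1.12 to -0.78 (log2 from the 9-week mean) in libraries of the lower-numbered run. In those of the higher-numbered run it stood from -0.71 to -0.49, without overlap. Exercised livers at 9 weeks ranged from -0.03 to 0.07 and unexercised ones from -0.10 to 0.04. With library totals the runs overlapped, from -0.81 to -0.38 (lower-numbered) and from -0.88 to -0.61 (higher-numbered), and both stayed below the 9-week libraries, where the lowest was -0.22. As a share of raw counts, with no scaling beyond the total, the members took 0.460% ± 0.0335 at 27 weeks (SD, n = 10), against 0.828% ± 0.0660 with exercise and 0.952% ± 0.0757 without it at 9 weeks (SD, n = 5 each). Without the most abundant member the shares were 0.418% ± 0.0282, against 0.698% ± 0.0276 with exercise and 0.798% ± 0.1004 without it at 9 weeks. The members were chosen for low 27-week values in these same libraries, so the medians and shares only describe them.

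**Figure D5:**
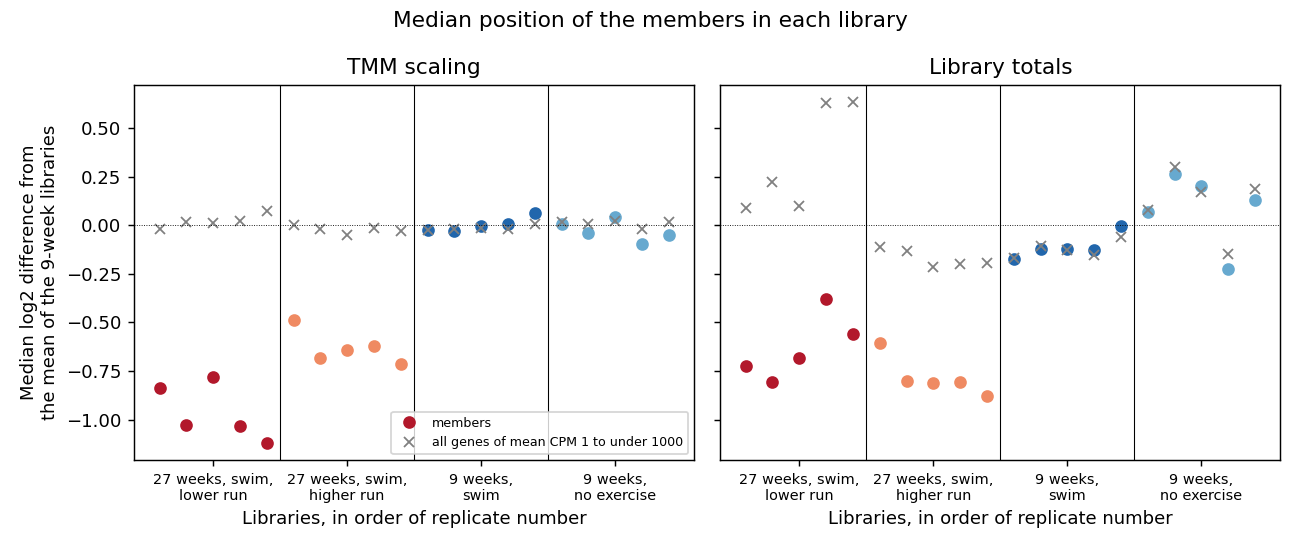
Median log2 difference from the mean of the 9-week libraries in each library, over the members (circles) and over all genes with a mean of 1 to under 1000 CPM (crosses), with TMM scaling (left) and library totals (right). The circles of the lower-numbered run lie below those of the higher-numbered run with TMM, while with library totals replicates 1 to 3 lie among them and replicates 4 and 5, at -0.38 and -0.56, above all of them, with crosses at 0.63.

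Gene by gene, the separation was more dependent on scaling than the difference of means. With library totals, 149 of 149 members kept a 27-week mean below the 9-week mean, and 64 kept all 27-week libraries below all 9-week ones. Taken by run, 148 members had every library of the higher-numbered run below every 9-week library with library totals, and 64 had every library of the lower-numbered run there. Shares over the range genes are not given for these counts. With library totals the median range gene (log2 from the 9-week mean) averaged 0.33 over the lower-numbered and -0.17 over the higher-numbered libraries. Its part in the contrast of 148 with 64 was not tested. The members were chosen for separation in the same libraries, so the counts only describe them. TMM factors averaged 1.24 ± 0.235 and 0.867 ± 0.0218 over the lower- and higher-numbered runs, and at 9 weeks 0.894 ± 0.0228 with exercise and 1.06 ± 0.120 without it (SD, n = 5 each). The rule applied with library totals gave 150 genes, of which 57 were among the 149 members.

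Counting depth was ample for the means of most members, while the gap at the edge was often narrow. No member had a count of 0, the lowest count of a member in any library was 7, and the median over members of that lowest count was 222. For 26 of 149 members the exact 95% Poisson intervals of the highest 27-week library and the lowest 9-week library did not overlap. In the others the 2 intervals overlapped, which does not by itself place the difference within counting error. Overlap was not confined to low counts, since it also occurred in a member with 1200 and 2113 counts in these libraries. The intervals cover counting error only, since PCR copies are not independent molecules.

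Within groups the members varied less than other genes, which a rule without overlap favours. The coefficient of variation of CPM had a median of 22.9% at 27 weeks over the members and 33.8% over the range genes, 11.4% and 16.5% in exercised livers, and 12.5% and 18.2% in unexercised livers at 9 weeks. Within the runs it was 19.3% in the lower-numbered and 14.0% in the higher-numbered run, beside 23.2% and 19.8% over the range genes. After the mean of each run and each 9-week group was taken off, pairs of members correlated across the 20 libraries with a median r of 0.09 (quartiles -0.13 and 0.33), beside 0.00 for pairs of range genes (quartiles -0.22 and 0.23). All pairs share the same libraries and scaling, so this is a description of weak covariation. On the first axis of these residuals, with 33.3% of their variance, replicates 1 and 3 of the lower-numbered run stood at 3.29 and 3.25 and replicates 4 and 5 at -3.60 and -3.64, with 99 of 149 members loading positively. No such axis over the range genes is given, so whether this contrast is particular to the members was not tested.

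Gene length was not part of the rule, but the rule used CPM, which is not scaled by length. Length may therefore not be independent of the selection, and it was not compared at like abundance. The length implied by the deposited values was available for all 149 members, with a median of 3496 bp (300.0 to 16027 bp), and for 14006 of the range genes, with a median of 2868 bp. The lower and upper quartiles were 1731 and 5536 bp in the members and 1458 and 4904 bp in the range genes. Among the members, 10 had consecutive identifier numbers, in 5 pairs. After group means were removed, 1 of these pairs correlated with r = 0.95 across the 20 libraries and the other 4 with r from -0.19 to 0.31. The sources used here do not say how reads that match several genes were counted, so members of such a pair may share reads.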

How the data were processed

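Per the labels' protocols, liver RNA libraries were made with the TruSeq RNA v2 kit. Tools named in the submitters' processing notes are featureCounts 1.4.6-p4, STAR 2.4.1d and bcl2fastq 1.8.4. Genome build, strand setting and handling of multi-mapping reads were not given in the sources used here. The authors deposited raw counts for 26739 identifiers, of which 4194 had no count in any library, and these counts were used as deposited. The second deposited table, treated here as a score, holds RPKM values whose library totals were cycled down the table, so it served only to derive gene length (the implied length varied by at most 0.00475% CV over 3127 genes).

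CPM was computed with TMM factors over all identifiers. Tests used edgeR 4.0.16 in R 4.3.3 (filterByExpr, robust quasi-likelihood F-test, two-sided, Benjamini-Hochberg adjusted over all genes tested, threshold 0.05) on all 20 libraries in 3 groups, and on the 10 libraries at 27 weeks for the runs. Alternatives were other scalings, no filter, DESeq2 1.42.0, limma 3.58.1 voom, other group sets and single libraries left out, and fits without replicates 4 and 5 at 27 weeks were added after seeing the data. The edgeR, limma-voom and DESeq2 fits were tested on simulated data, only for 27 weeks against exercised 9 weeks. Identifiers printed were the 2 members with the widest gap and the 2 at each end of the ratio between runs and between 9-week groups, and further members are described by rank. The members, comparisons and rules were chosen with earlier results of these data known. Lists of pathway genes and cell type markers could not be used without gene names.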

Additional observations from a re-analysis of the deposited data

Results flagged for a closer look

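In 55 groups of values examined (9 members and 2 library measures in 5 sets of libraries), 4 held a library apart from the rest. About 1 in 20 is expected by chance, and 4 is not far from that share. The groups share libraries and genes, so they are not independent. Replicate 4 at 27 weeks gave 0.551% of its counts to the members, against 0.439% to 0.475% in the other 27-week libraries. With TMM, whose factor was 1.52 in this library, the members summed to 3612 CPM there. That was near the low end of the 27-week libraries, which ran from 3232 to 5325 CPM. Within the higher-numbered run replicate 7 gave 0.458%, against 0.445% to 0.448% in the others. The most abundant member had 737 CPM in replicate 7. Without that gene replicate 7 gave 0.393%, the lowest share of the run, where the highest was 0.428%. Replicate 6 of the same run had 8.04 CPM of Nfu_g_1_007870, against 6.93 to 7.12 CPM in the others. Exercised replicate 5 at 9 weeks had 52.8 CPM of Nfu_g_1_022327, against 32.3 to 37.6 CPM in the other exercised libraries.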

How the results depend on the processing

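Over 9 alternatives of scaling and thresholds 86 to 177 genes met the rule. The lowest count, 86, came with runs within 1.3-fold, which by construction kept 86 members, and library totals gave 150 genes, of which 57 were members. Leaving out single libraries gave 152 to 258 genes, and 95 to 145 members stayed among the 150 then taken. Both extremes of 258 and 95 came from leaving out replicate 6 at 27 weeks. With fewer libraries to separate the rule is easier to meet, and the limit of 150 genes can then displace members that stay separated. Over 7 alternatives of the fit 111 to 149 members were called lower than in exercised 9-week livers (146 to 148 without single libraries), a direction fixed by the choice of members. Of all genes tested, 4175 to 6235 were called in either direction in these alternatives, and 3928 to 5844 without single libraries. With library totals the median log2 difference with exercise was -0.20 in place of 0.04, and between the runs the median was 0.20 in place of -0.28, with 31 members called in place of 53. Of all 16157 genes tested, 8827 were then called between the runs, in place of 7438. With the 9-week groups alone in the fit 1 member was called with exercise, where 1261 of 16304 genes were. With single libraries left out, 38 to 49 members were called between the runs, where 6259 to 7442 of all genes tested were. For the named members, 237 of 240 values under the alternatives kept their direction and side of the threshold, and 0 reversed. No paired analysis was possible because the labels give no replicate numbers shared between groups. Counting error bears on the edge between the ages, where intervals overlapped in all but 26 members.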
